A study of Mus musculus with 4 samples.

Results

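The genes described here encode the subunits of ATP-dependent chromatin remodellers and their relatives by name. Membership went by symbol, under a rule chosen with earlier results of these data known. The rule took every gene whose symbol begins with Smarc, Arid and a digit, Chd and a digit, Ino80 or Bcl7a to Bcl7c. It also took Pbrm1, Actl6a, Phf10, Dpf2, Baz1a, Baz1b, Baz2a, Bptf, Srcap and Ep400. This rule found 53 genes among 20735 gene IDs, and 50 of them reached the mean of 1 FPKM at which a gene was tested. FPKM scales the fragments of a gene to its transcript length and to the size of the library, so levels can be set side by side between genes. The study measured messenger RNA by sequencing in germinal centre B cells sorted from the spleens of C57BL/6 mice, 8 weeks of age, that had been immunized with sheep red blood cells. It holds 2 wild-type (wt) libraries and 2 Nsd2 knockout (ko) libraries, which differ by label only in the genotype. The design of the knockout allele, the tissue in which it acts, the sex of the mice and whether the libraries of a group came from separate mice are unknown from the labels. The p-values therefore measure the spread between these libraries, which may be technical.

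Remodellers use ATP to slide, evict or exchange nucleosomes, and 4 families are known by their motors: SWI/SNF, ISWI, CHD and INO80. Most of them work as large complexes in which a motor is joined by shared core subunits and by alternative subunits that exclude each other. Several of them are needed in B cell development. Nsd2 is a histone methyltransferase that dimethylates lysine 36 on histone H3. Not every gene of the rule fits this picture. The Arid3, Arid4 and Arid5 proteins share only a DNA-binding domain with the SWI/SNF subunits Arid1a, Arid1b and Arid2. A further 4 members encode no subunit: Ino80dos is a long noncoding RNA, Smarca5-ps and Smarce1-ps1 are pseudogenes, and Chd3os is an opposite-strand transcript that GENCODE lists as protein-coding.

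Nsd2 itself, listed under the symbol Whsc1, was at 76.9 and 81.4 FPKM in wt and at 31.4 and 34.1 in ko, so the ko libraries still held reads of the gene. Among the germinal centre markers Bcl6, Mef2b, S1pr2, Rgs13, Gcsam and Fas, Bcl6 was at 81.4 and 85.4 FPKM in wt against 81.8 and 85.9 in ko and S1pr2 at 173.3 and 175.2 against 170.7 and 173.8, while Rgs13 was higher and Mef2b lower in ko by the limma test. The 7 T cell markers had a sum of 37.7 and 37.2 FPKM in wt against 41.3 and 46.3 in ko, nearly all of it Lck. Of that list Trac was at 0.456 and 0.355 in wt against 1.16 and 1.42 in ko, and Cd3d, Cd3e, Cd3g, Cd4 and Cd8a lay at or below 0.284 FPKM in every library. The C1q genes of macrophages were similarly low. Relative to wt 1, the depth read from the smallest values was 94.2% in wt 2, 75.5% in ko 1 and 77.4% in ko 2. FPKM does not give the absolute depth.

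Of the 50 tested members, 6 changed between the genotypes, at a limma p below 0.05 after Benjamini-Hochberg adjustment over all 10883 tested genes. This is 12.0% of the members, and 12.9% of all tested genes were called in the same way, so the share of changed members was near that of the transcriptome. The 3 members Arid3b, Arid3a and Chd2 rose (6.0% of members, 6.66% of all tested genes), and the 3 members Phf10, Smarca2 and Arid2 fell (6.0%, against 6.2% of all). The log2 fold changes of the 50 members had a median of 0.02 and ran from -0.28 to 0.48, against a median of 0.01 over all tested genes. Their median size without regard to sign was 0.08, against 0.10 over all tested genes, and 38 of the 50 lay within 0.15 of 0. Both ko libraries fell outside the range of the wt pair in 28 of the 50 members (56.0%), which was the case for 61.2% of all tested genes. They lay above in 18 of the 50 members and below in 10 of the 50. Over all 10883 tested genes they lay above in 3527 (32.4%) and below in 3129 (28.8%). The SD of the log2 difference between 2 libraries was 0.11 over the members for the wt pair, 0.10 for the ko pair and 0.14 to 0.17 for pairs of unlike genotype. In these bulk samples, fewer cells of a type and less RNA per cell cannot be told apart.

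**Figure D1:**
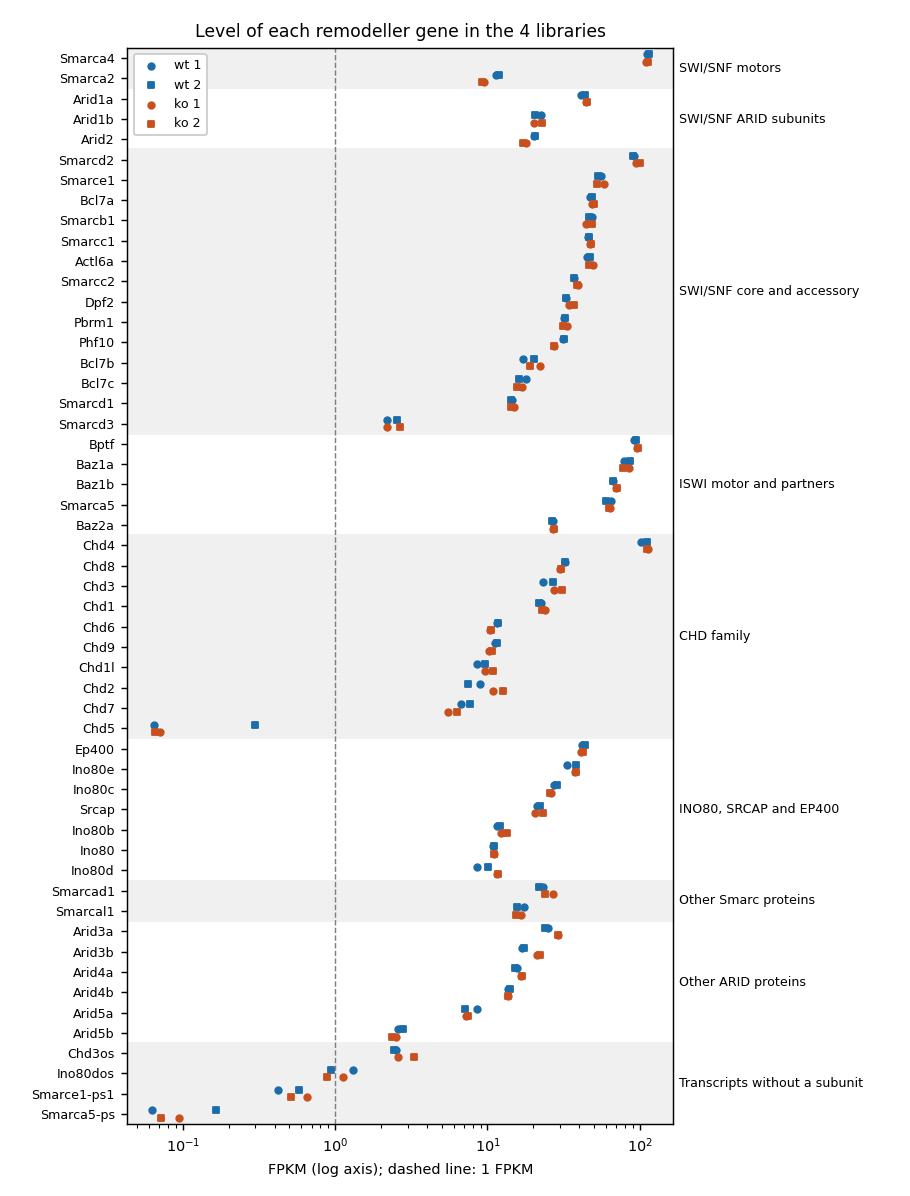
FPKM of all 53 members on a log axis, grouped by role, with wt libraries in blue and ko libraries in orange (circles for replicate 1, squares for replicate 2). For most members the 4 libraries lie close together, from the top at Smarca4 (113.0 in wt) downward, and Chd5 and both pseudogenes lie below 1 FPKM.

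The SWI/SNF complex is driven by Smarca4 (BRG1) or by its paralog Smarca2 (BRM), and Smarca2, the less abundant motor, fell in ko while Smarca4 did not pass the test. The difference between both responses was not tested. Smarca4 was at 112.0 and 114.1 FPKM in wt against 109.7 and 113.7 in ko. Its mean of 113.0 ± 1.49 FPKM in wt (SD, n = 2) was the highest of all members, ahead of Chd4 (106.9 ± 6.60), Bptf (92.5 ± 1.93), Smarcd2 (91.1 ± 1.37) and Baz1a (82.6 ± 4.70), and the spread of Smarca4 and Chd4, and of Bptf and Smarcd2, overlapped. Its libraries overlapped, and its log2 fold change of -0.02 had a 95% interval of -0.09 to 0.06 (limma adjusted p = 0.743). Smarca2 was at 11.4 and 11.8 FPKM in wt against 9.52 and 9.22 in ko. Both ko libraries lay below both wt libraries, a ratio of means of 0.807 and a log2 fold change of -0.28 ± 0.06 (SE; limma adjusted p = 0.0331, n = 2 per group). Smarca2 therefore made up 9.22% and 9.40% of the summed FPKM of both motors in wt against 7.98% and 7.50% in ko, a difference of -1.57 percentage points. An exact permutation test of such a share, with 2 libraries a group, has 0.333 as its smallest two-sided p, so shares are given with no test. Smarca2 lost its call whichever library was left out, at an adjusted p of 0.0939 (wt 1), 0.130 (wt 2), 0.0800 (ko 1) and 0.112 (ko 2). The paralogs are similar in sequence, so the authors' counting may have split some reads between them.

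The promoters of these paralogs are shown because the motors share a function and differ in level by so much. The stretches come from RefSeq on GRCm38.p6 and end at the base before the annotated start of transcription. That of Smarca4 lies at chr9:21615919-21616168 and that of Smarca2 at chr19:26604910-26605049, both on the plus strand. Capitals mark matches, on either strand, to the GC box.
Smarca4: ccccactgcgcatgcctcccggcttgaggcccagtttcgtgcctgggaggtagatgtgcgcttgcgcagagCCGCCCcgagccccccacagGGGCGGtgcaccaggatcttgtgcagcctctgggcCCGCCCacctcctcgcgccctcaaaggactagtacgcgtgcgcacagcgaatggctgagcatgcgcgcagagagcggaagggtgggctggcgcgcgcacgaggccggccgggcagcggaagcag
Smarca2: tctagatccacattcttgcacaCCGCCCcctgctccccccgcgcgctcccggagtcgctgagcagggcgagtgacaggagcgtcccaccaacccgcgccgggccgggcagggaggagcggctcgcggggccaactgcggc
The Smarca4 stretch of 250 bases held 3 GC boxes and 25 CpG dinucleotides, and the Smarca2 stretch of 140 bases held 1 GC box and 16 CpG. Both stretches are rich in G and C, at 70.8% and 73.6%, but their lengths differ. Over 250 bases each, the Smarca2 window held 28 CpG and 2 GC boxes, and that of Smarca4 held 25 CpG and 3 GC boxes. Promoter windows of 250 bases were found for 31 of the 50 tested members and searched on both strands. Some windows ended past the GENCODE start, by 742 bases for Arid1b and 110 for Smarca2, and so held bases inside the gene. The called members Arid2, Arid3a and Chd2 had no window, so the shares below do not cover them. The letters were GGGCGG for the GC box, CCAAT for the box of that name, CCGGAA for the core of ETS sites, CACGTG for the E-box, TGACGTCA for the CRE and TATAAA for the TATA box, and the NRF1 motif was searched as well. No motif contains another, and overlapping matches were each counted. A GC box was in 23 of the 31 windows (74.2%) and in 62.2% of the 7103 windows of all tested genes. The CCAAT box was in 10 members (32.3%, against 38.4% of all) and the ETS core in 8 (25.8%, against 26.5%). The E-box was in 5 (16.1%, against 9.05%), the TATA box in 1 (3.23%, against 5.29%), and CRE and NRF1 in 0 (against 3.15% and 2.01%). Member windows held a median of 20 CpG dinucleotides, with a range of 4 to 51, against a median of 17 over all tested genes.

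The choice of ARID subunit sets the form of SWI/SNF: Arid1a or Arid1b in the canonical BAF complex, Arid2 in the PBAF form. Arid1a was at 41.1 and 43.5 FPKM in wt against 44.6 and 45.1 in ko (log2 fold change 0.08, 95% interval -0.01 to 0.18, limma adjusted p = 0.214). Arid1b was at 22.4 and 20.4 in wt against 20.2 and 22.7 in ko, with overlapping libraries and a log2 fold change of 0.00 (interval -0.17 to 0.17). Arid2 was at 20.1 and 20.6 in wt against 18.01 and 17.17 in ko, and both ko libraries lay lower. It fell by 0.20 ± 0.05 (SE) on the log2 scale (limma adjusted p = 0.0492), the closest to the threshold of the 6 called members. Arid2 held 24.0% and 24.4% of the summed FPKM of the trio in wt against 21.8% and 20.2% in ko, while Arid1a went from 49.2% and 51.4% to 53.9% and 53.1%. The call of Arid2 was lost without wt 1 (0.127), wt 2 (0.172), ko 1 (0.0849) or ko 2 (0.161), and after quantile normalization (limma adjusted p = 0.0536).

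Phf10, which carries the PHD fingers of PBAF, fell as well. It was at 31.5 and 31.7 FPKM in wt against 27.3 and 27.1 in ko, a ratio of means of 0.861. The replicates lay close together and the groups apart, with a log2 fold change of -0.21 ± 0.04 (SE; limma adjusted p = 0.0244). Without wt 1, wt 2, ko 1 or ko 2 the adjusted p was 0.0890, 0.0890, 0.0736 and 0.0840, with log2 fold changes of -0.21 to -0.20. Pbrm1, the polybromo subunit that gives PBAF its name, was at 31.7 and 32.5 FPKM in wt against 33.4 and 31.5 in ko (log2 fold change 0.01, interval -0.10 to 0.12). Brd7, the bromodomain subunit of PBAF that lies outside the name rule, was at 30.2 and 27.2 in wt against 28.0 and 33.3 in ko (log2 fold change 0.09, adjusted p = 0.535). These PBAF subunits were set side by side after their values were seen, so no count over them is given. Arid2 was called under 4 of the 14 alternatives and Phf10 under 8. Phf10 shares its locus with 1600012H06Rik, which was at 8.83 and 7.73 FPKM in wt against 8.60 and 7.54 in ko and did not pass the test.

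The Phf10 promoter is shown because its window held 51 CpG dinucleotides, the most of any matched member. The stretch lies at chr17:14961274-14961510 on the minus strand of GRCm38.p6, and capitals mark GC boxes.
Phf10: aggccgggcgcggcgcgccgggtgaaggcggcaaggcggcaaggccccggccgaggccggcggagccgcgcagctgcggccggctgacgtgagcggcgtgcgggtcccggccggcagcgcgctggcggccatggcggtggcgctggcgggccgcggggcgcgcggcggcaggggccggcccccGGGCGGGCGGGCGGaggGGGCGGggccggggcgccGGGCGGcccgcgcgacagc
It held 47 CpG and 5 GC boxes in 237 bases, of which 88.2% were G or C.

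The remaining core and accessory subunits of SWI/SNF had log2 fold changes of -0.05 to 0.13. None passed the threshold, against 12.9% of all tested genes. Both ko libraries lay above both wt libraries in Smarcc1, Smarcc2, Smarcd2 and Dpf2, as in 32.4% of all tested genes, and the others overlapped. The 95% intervals of Smarcd2 (0.01 to 0.18) and Dpf2 (0.01 to 0.22) lay above 0. Smarcb1, the core subunit lost in rhabdoid tumours, was at 48.3 and 46.1 FPKM in wt against 44.5 and 48.5 in ko (interval of the log2 difference -0.15 to 0.10). The scaffold pair Smarcc1 and Smarcc2 was at 46.2 ± 0.52 and 37.1 ± 0.01 FPKM in wt against 47.2 ± 0.49 and 38.9 ± 0.22 in ko (SD, n = 2). Smarcc1 made up 55.2% and 55.6% of the pair in wt against 54.5% and 55.1% in ko. Smarcd2, known for its part in granulocyte development, was the main member of the Smarcd trio at 92.0 and 90.1 FPKM in wt against 94.9 and 99.99 in ko. It made up 84.5% ± 0.34 of the trio in wt against 85.1% ± 0.55 in ko, with Smarcd1 near 14 FPKM and Smarcd3 between 2.19 and 2.65. Dpf2, the PHD finger subunit of BAF that is the counterpart of Phf10, was at 32.8 and 32.8 FPKM in wt against 34.4 and 36.8 in ko (log2 fold change 0.11, limma adjusted p = 0.140). Bcl7a, first found at a translocation in B cell lymphoma, was at 47.2 and 48.9 FPKM in wt against 48.3 and 50.2 in ko, with overlapping libraries. It made up 57.5% ± 0.10 of the Bcl7 trio in wt against 57.2% ± 2.63 in ko.

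**Figure D2:**
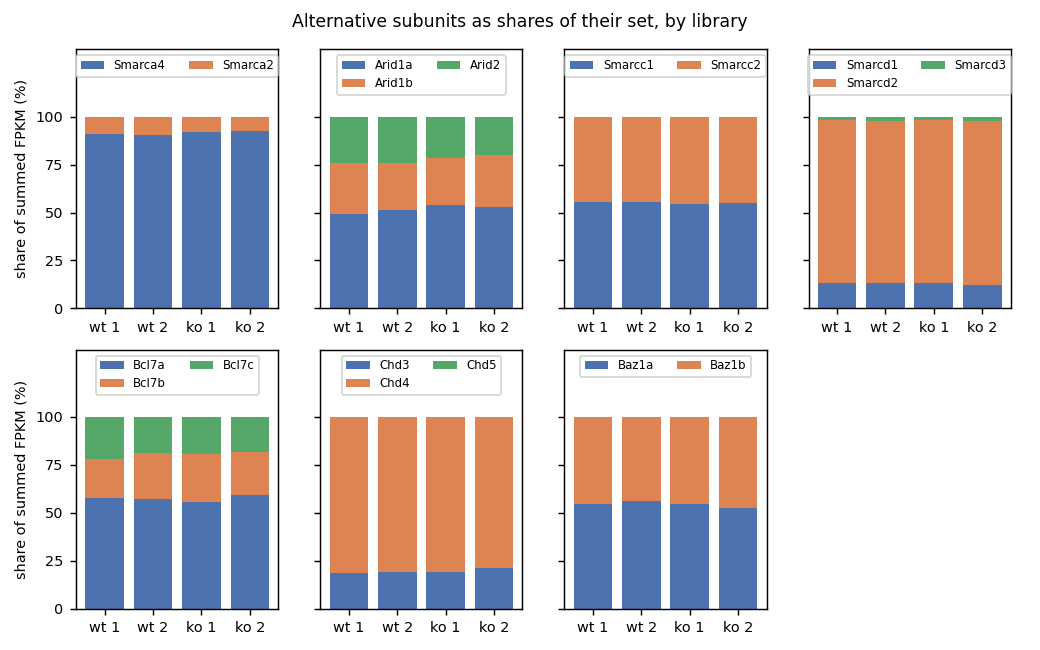
Stacked bars give each alternative subunit's share of the summed FPKM of its set in the 4 libraries, for 7 sets. The Smarca2 share is 9.22% and 9.40% in wt against 7.98% and 7.50% in ko, and the Arid2 share is 24.0% and 24.4% against 21.8% and 20.2%, while the Bcl7 and Baz1 shares overlap between genotypes.

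ISWI remodellers space nucleosomes evenly and are built on the motor Smarca5 (SNF2H). None of the 5 ISWI genes passed the limma test, against 12.9% of all tested genes. An unadjusted p below 0.05 was found in 1 of the 5, against 3499 of 10883 genes, and their log2 fold changes lay between -0.02 and 0.08. Smarca5 was at 65.1 and 60.1 FPKM in wt against 63.8 and 62.8 in ko (interval of the log2 difference -0.09 to 0.12). Its partner Baz1a was at 79.3 and 85.9 in wt against 84.9 and 77.6 in ko, and Baz2a, which guides Smarca5 to ribosomal DNA, at 26.9 and 26.5 in wt against 26.9 and 27.5 in ko. The libraries of all 3 overlapped. Baz1b was at 66.5 and 66.5 in wt against 70.0 and 70.4 in ko, with ko above wt (log2 fold change 0.08, interval 0.00 to 0.15, limma adjusted p = 0.140). Bptf, the large subunit of the NURF complex that reads trimethylated lysine 4 of histone H3, was at 91.1 and 93.8 in wt against 96.1 and 96.6 in ko (log2 fold change 0.06, adjusted p = 0.232). The paralog motor Smarca1 was in none of the tables.

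The CHD family held the largest change of all members. Chd2, a motor found at actively transcribed genes, was at 8.87 and 7.45 FPKM in wt against 10.9 and 12.7 in ko. Both ko libraries lay higher, with a ratio of means of 1.44 and a log2 fold change of 0.48 ± 0.10 (SE; limma adjusted p = 0.0339). The call held without wt 1 (0.0434) and was lost without wt 2 (0.0997), ko 1 (0.0515) or ko 2 (0.119), with log2 fold changes of 0.37 to 0.59. Chd2 lies on the minus strand of chromosome 7, 73426638 to 73541830 (GRCm38), and shares its locus in the authors' tables with 1810026B05Rik. That noncoding RNA, also called Chaserr, begins upstream of Chd2 on the same strand and is known in the mouse to hold Chd2 down in cis. It was at 30.8 and 24.5 FPKM in wt against 22.4 and 25.1 in ko, with overlapping libraries and a log2 fold change of -0.20 (95% interval -0.47 to 0.06, limma adjusted p = 0.248). Their annotated spans overlap, so the split of reads between both genes is uncertain.

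In 8 of the 9 tested CHD genes the ko libraries lay outside the wt pair, against 61.2% of all tested genes, and 1 of the 9 was called, against 12.9%. The order below, by subfamily, was chosen after the values were known and was not tested. Chd1, Chd2, Chd3 and Chd4, which form the first and second subfamilies together with Chd5, had ko libraries above both wt libraries. Chd6, Chd7, Chd8 and Chd9, which form the third, had ko libraries below both. Of these 8 genes, Chd2 was the one that passed the test. Chd4, the main motor of the NuRD complex, was at 102.2 and 111.5 FPKM in wt against 113.1 and 112.2 in ko (log2 fold change 0.08, limma adjusted p = 0.280). Its alternative Chd3 was at 23.2 and 26.9 in wt against 27.3 and 30.7 in ko (log2 fold change 0.20, adjusted p = 0.153) and made up 18.5% and 19.4% of the Chd3, Chd4 and Chd5 sum in wt against 19.4% and 21.5% in ko. Chd7, mutated in human CHARGE syndrome, was at 6.69 and 7.73 in wt against 5.53 and 6.35 in ko (log2 fold change -0.24, adjusted p = 0.148). Chd8, a regulator of beta-catenin signalling, was at 32.2 and 32.0 in wt against 29.9 and 30.5 in ko (log2 fold change -0.09, adjusted p = 0.175). The log2 fold changes of Chd6 and Chd9 were -0.13 and -0.10. With the trend of each library on genomic span removed, Chd6, Chd7, Chd8 and Chd9 had log2 fold changes of -0.04, -0.14, -0.06 and 0.02. Chd1l, which is activated by poly(ADP-ribose) at DNA damage, overlapped between genotypes, and Chd5, a neuronal gene, was below 0.30 FPKM in every library and was not tested.

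INO80, SRCAP and EP400 are large motors that reposition nucleosomes or exchange the histone variant H2A.Z, and none of the 7 genes of this group passed the limma test, against 12.9% of all tested genes. For 1 of the 7 the unadjusted p was below 0.05, against 3499 of 10883 genes, so such small groups show little by their counts. Ino80 was at 10.83 and 10.99 FPKM in wt against 10.99 and 10.98 in ko (interval of the log2 difference -0.13 to 0.15). Srcap was at 21.1 and 22.1 in wt against 20.5 and 23.2 in ko, and Ep400 at 41.4 and 43.4 in wt against 40.8 and 42.4 in ko. The libraries of these 3 motors overlapped between genotypes. Ino80d, an accessory subunit, was at 8.54 and 10.1 in wt against 11.6 and 11.8 in ko (log2 fold change 0.30 ± 0.08 SE, limma adjusted p = 0.0637). It passed the threshold without wt 2 (log2 fold change 0.41, adjusted p = 0.0432). The tables list Ino80d under the same locus as Eef1b2, a translation elongation factor at 389.8 and 383.4 FPKM in wt against 411.3 and 413.9 in ko (adjusted p = 0.0452), and as Ndufs1. Ino80c had ko below wt, at 27.4 and 28.4 against 26.2 and 25.7 FPKM (log2 fold change -0.10, adjusted p = 0.161). Outside these complexes, Smarcad1, a motor with roles in DNA end resection and silencing, was at 23.1 and 21.8 in wt against 27.0 and 23.8 in ko (log2 fold change 0.17, adjusted p = 0.144). Smarcal1, which restarts stalled replication forks, was at 17.2 and 15.5 in wt against 16.6 and 15.5 in ko.

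**Figure D3:**
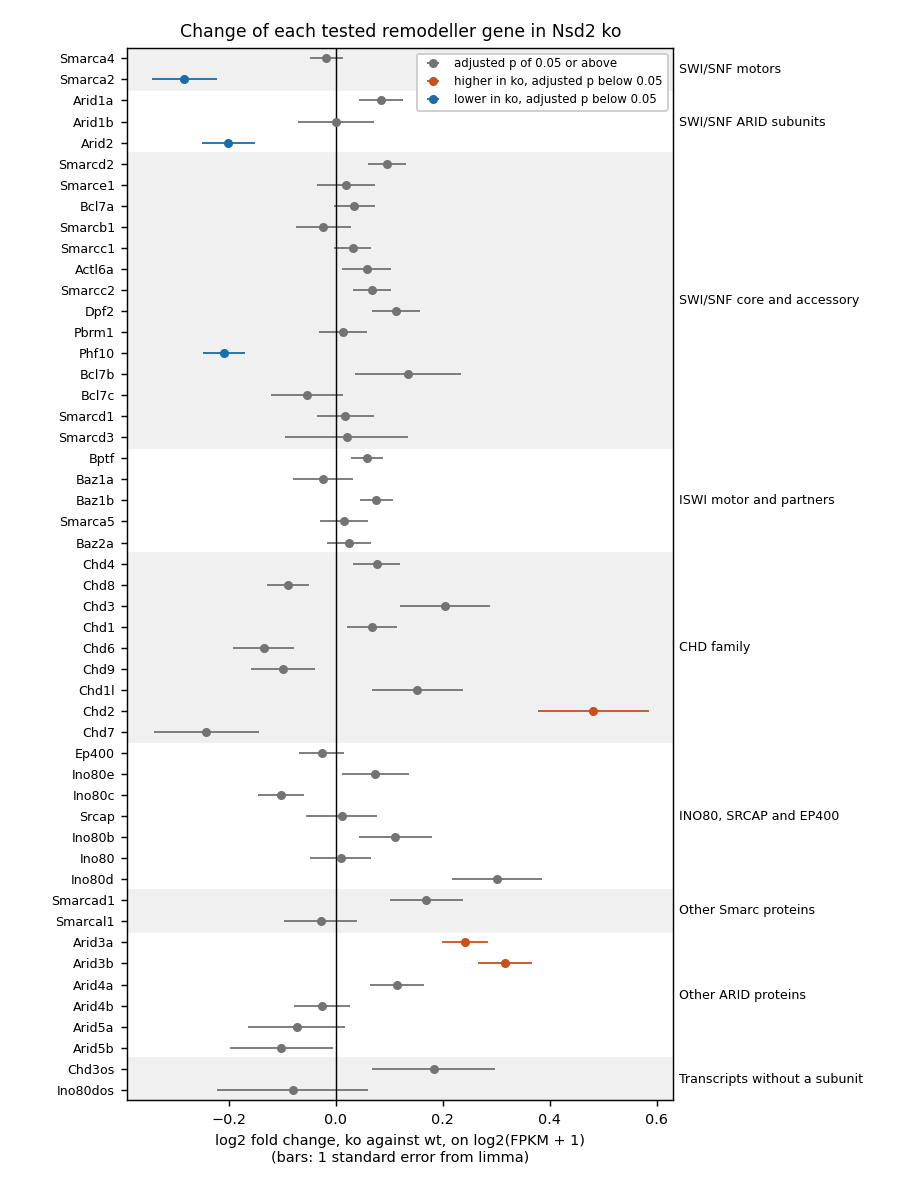
Log2 fold change of each of the 50 tested members with its standard error from limma, grouped by role. Orange marks the 3 members that rose (Arid3b, Arid3a and Chd2), blue the 3 that fell (Phf10, Smarca2 and Arid2), and 38 of the 50 lie within 0.15 of 0.

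Of the 6 called members, the smallest p-values belonged to ARID proteins that are no remodeller subunits. Arid3a (Bright) was described in B cells as a factor that binds near the immunoglobulin heavy chain enhancer, and Arid3b is its paralog. Arid3a was at 24.9 and 23.9 FPKM in wt against 28.8 and 29.2 in ko, a ratio of means of 1.19 (log2 fold change 0.24 ± 0.04 SE, limma adjusted p = 0.0217). Arid3b was at 16.9 and 17.3 in wt against 21.01 and 22.08 in ko, a ratio of 1.26 (log2 fold change 0.32 ± 0.05 SE, adjusted p = 0.0173). In both genes the ko libraries lay above both wt libraries by more than the gap between replicates. Arid3b kept its call without wt 2 (0.0441) or ko 1 (0.0446) and lost it without wt 1 (0.0674) or ko 2 (0.0691). Arid3a lost it without wt 1 (0.0604), wt 2 (0.0836), ko 1 (0.0655) or ko 2 (0.0803). Arid4a and Arid4b, partners of the Sin3 corepressor, were at 15.4 ± 0.35 and 13.9 ± 0.23 FPKM in wt against 16.8 ± 0.23 and 13.6 ± 0.06 in ko (SD, n = 2) and did not pass. Arid5a, an RNA-binding protein known to stabilise Il6 mRNA, and Arid5b, a partner of the demethylase Phf2, had log2 fold changes of -0.07 and -0.10 and did not pass either.

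The Arid3b promoter is shown because its window held more GC boxes than that of any other matched member. The stretch lies at chr9:57836794-57837029 on the minus strand of GRCm38.p6, and capitals mark GC boxes, the ETS core and the CCAAT box.
Arid3b: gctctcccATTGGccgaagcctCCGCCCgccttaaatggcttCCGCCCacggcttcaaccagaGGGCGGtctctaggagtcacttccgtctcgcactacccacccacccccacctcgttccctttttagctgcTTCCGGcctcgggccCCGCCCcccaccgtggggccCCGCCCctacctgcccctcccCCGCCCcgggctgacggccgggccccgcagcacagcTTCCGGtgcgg
It held 6 GC boxes, 2 ETS cores and 1 CCAAT box in 236 bases.

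Some markers of other B cell states and of handling also differed between the genotypes, and others did not. Of the naive and follicular markers, Cd38 rose from 12.8 and 12.3 FPKM in wt to 18.1 and 17.01 in ko and Fcer2a from 68.1 and 68.4 to 81.3 and 81.4, while Ccr7 and Klf2 did not pass the test. The stress and handling genes summed to 195.7 and 193.1 in wt against 208.1 and 213.6 in ko. Of the 9 tested, 4 rose (Fos, Hspa1a, Hspa1b and Ier2), against 6.66% of all tested genes. Hspa1a was at 0.786 and 1.13 FPKM in wt against 2.57 and 2.45 in ko. It reached the mean of 1 FPKM only through the ko libraries, so the count is no fair measure against that share. Fosb, Egr1 and Dnajb1 lay lower in both ko libraries and did not pass the test. The 5 plasma cell markers summed to 683.8 and 685.0 in wt against 678.3 and 677.0 in ko, most of it Jchain. None of them passed the test, with Prdm1 and Sdc1 higher and Irf4 lower in both ko libraries. The 8 macrophage and monocyte markers summed to 6.52 and 5.51 in wt against 9.15 and 9.65 in ko, with all 3 C1q genes below 1 FPKM. Lyz2 was at 0.333 and 0.605 in wt against 1.59 and 1.64 in ko. It reached the mean of 1 FPKM only through the ko libraries, so its call is no independent test. The part of these markers in the changes of the called members, whether they rose or fell, was not tested.

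The members are long genes, with a median genomic span of 49.3 kb against 19.9 kb over all tested genes. Over all tested genes the median log2 fold change went from 0.05 for spans of up to 10 kb to -0.13 for spans above 160 kb. Spearman's rho between span and log2 fold change was -0.35 across the 50 members and -0.24 across 10852 genes, as a description across genes that share 4 libraries. For GC content of the transcript the same measure was 0.25 across the members and 0.30 across all genes, larger in size than that for span over all genes. Among the called genes, Smarca2 spans 173.3 kb, Arid2 117.5 kb and Chd2 115.2 kb, while Arid3b, Arid3a and Phf10 span 46.4, 28.0 and 16.3 kb. With the trend of each library on span removed, Smarca2 and Arid2 had log2 fold changes of -0.18 and -0.13 and lost their calls (limma adjusted p = 0.0974 and 0.143). Under the same correction Ino80d and Bptf were called, at log2 fold changes of 0.40 and 0.12 (adjusted p = 0.0326 and 0.0443), and Arid3b, Arid3a, Chd2 and Phf10 kept their calls, so 5 members rose and 1 fell, against 12.2% of all genes called. With the trend on GC content removed, 5 of the 6 calls remained and Arid2 was lost (adjusted p = 0.0765).

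**Figure D4:**
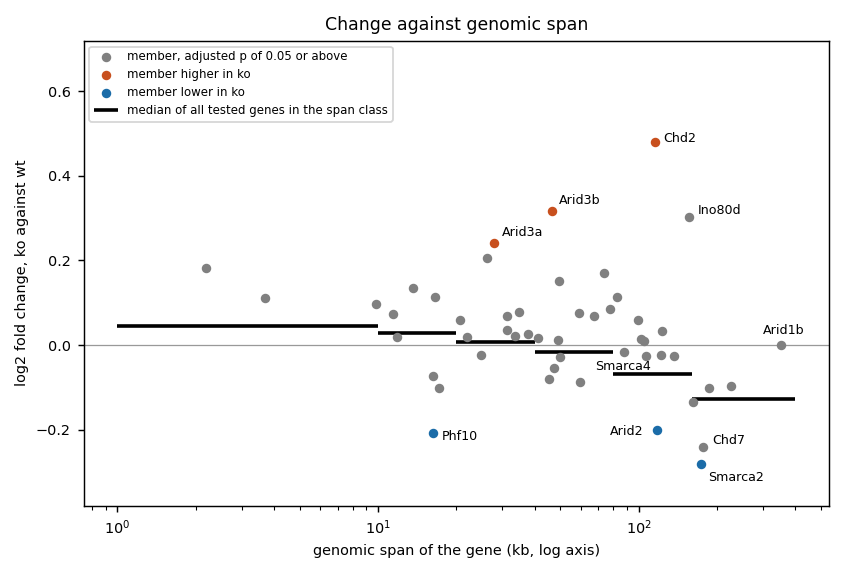
Log2 fold change of the 50 tested members against genomic span on a log axis, with black lines for the median of all tested genes in 6 span classes. The black line falls from 0.05 at spans of up to 10 kb to -0.13 above 160 kb; Smarca2 and Arid2 lie below it and Chd2 and Ino80d above it.

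A wider list of further remodeller subunits and partners gives the surroundings of these genes. It had 63 genes in the tables, of which 61 were tested, 3 rose and 2 fell (8.20%, against 12.9% of all tested genes), and the median log2 fold change was 0.01. Those that rose included the NuRD subunits Hdac1, at 132.1 and 131.4 FPKM in wt against 142.8 and 147.3 in ko, and Mta2, at 112.3 and 114.2 in wt against 122.4 and 124.6 in ko (limma adjusted p = 0.0310 and 0.0379). Ercc6, the Cockayne syndrome motor of transcription-coupled repair, was at 4.72 and 4.99 in wt against 6.09 and 6.54 in ko (adjusted p = 0.0465). Rbbp7, a histone chaperone shared by NuRD, NURF and PRC2, fell from 188.3 and 190.4 to 172.6 and 171.8 (adjusted p = 0.0224). Zranb3, an annealing helicase at replication forks, was at 5.94 and 5.32 in wt against 3.60 and 3.90 in ko, with a log2 fold change of -0.48 ± 0.09 (SE; adjusted p = 0.0237). Of these 5, Hdac1, Mta2, Ercc6 and Rbbp7 lost their call whichever library was left out (adjusted p = 0.0632 to 0.123, 0.0883 to 0.142, 0.0879 to 0.168 and 0.0666 to 0.0889). Zranb3 kept it without wt 2 (0.0489) and lost it without wt 1 (0.103), ko 1 (0.0785) or ko 2 (0.0634). The other NuRD subunits of the list were not called and did not share a direction. Both ko libraries lay below wt in Hdac2, Mbd2, Mbd3, Mta3 and Gatad2b and above wt in Mta1. Gatad2a, Rbbp4 and Cdk2ap1 overlapped.

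**Figure D5:**
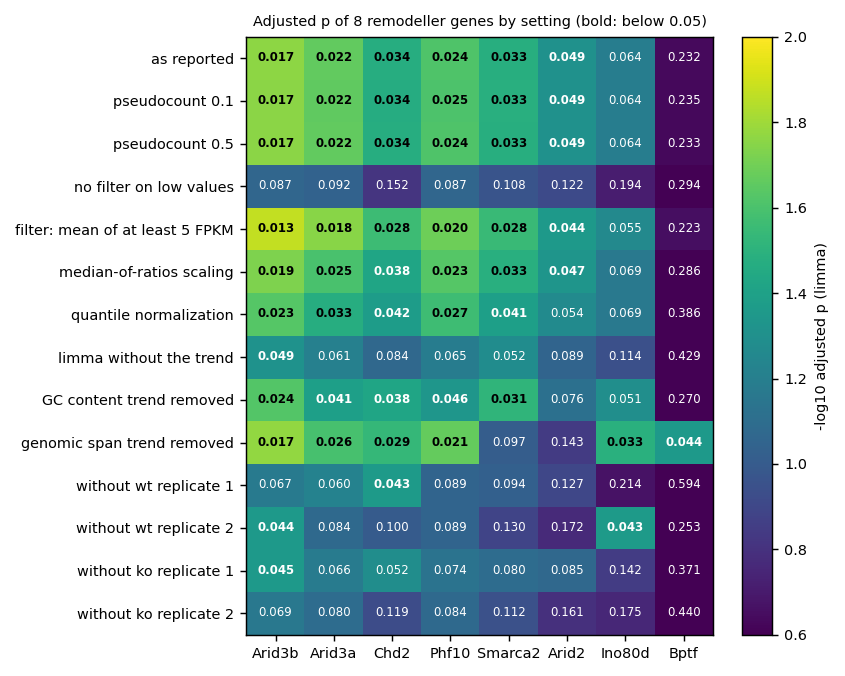
Adjusted p from limma for the 6 called members, Ino80d and Bptf (columns) under the reported fit and 13 alternatives (rows), with values below 0.05 in bold and brighter colours for smaller values. The reported calls appear in the rows for other pseudocounts, the stricter filter and median-of-ratios scaling, and few are left in the rows that leave out 1 library.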

How the data were processed

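RNA of sorted splenic germinal centre B cells was taken up in Trizol, and sequencing libraries followed, per the labels' protocols. Each library had a table of gene ID, symbol, locus and FPKM computed by the authors, per the file headers. Per the submitters' processing notes, TopHat2 2.1.1, Bowtie2 2.2.9 and mm10 were used, in roles they leave out. Which tool made FPKM, with what annotation, strand setting or filters, is likewise unstated. The tables list only genes above 0, and a gene missing from 1 was set to 0 there (9 tested genes). FPKM hides depth, and can carry biases of GC content and length between libraries.

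Spans, GC content and gene types came from GENCODE M21 on GRCm38, joined on gene ID (99.4% of IDs), the assembly of mm10. R 4.3.3 with limma 3.58.1 modelled log2(FPKM + 1) by genotype, letting the spread follow the expression level, in the 10883 genes whose mean reached 1 FPKM, so fold changes of low genes are understated. Intervals are 95% intervals from that fit (residual 2 and prior 4.39 degrees of freedom). The fit was also run on simulated libraries with independent noise. Those hold no batch and no trends on GC content or span, so they do not check the fit against such effects. Trends on GC content and span were removed by lowess on each library. Tables were joined with Python 3.11.15 and pandas 2.3.3. The members, the wider list and the marker lists were chosen with earlier results of these data known, and some markers are not reported here. All members were named by rule; groupings made after values were seen are marked.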

Additional observations from a re-analysis of the deposited data

How the results depend on the processing

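The 6 called members were the same under pseudocounts of 0.1 and 0.5, a filter of 5 FPKM and median-of-ratios scaling, and 5 of them were called after quantile normalization (3 up, 2 down). With no filter on low values, members called fell from 3 up and 3 down to 0 and 0, all genes from 725 and 675 to 9 and 5, and the wider list from 3 and 2 to 0 and 0 (limma; 15 members and 14 of the wider list had an unadjusted p below 0.05). Without the trend of spread these were 1 and 0, 231 and 305, and 0 and 1. With genomic span trends removed 5 members rose and 1 fell, with 4 calls shared, and 4 of the wider list fell, as they did with GC content trends removed. Quantile normalization left 1 rise in the wider list and the filter of 5 FPKM left 1 fall. At an adjusted p below 0.10, 1345 genes rose and 1195 fell, and 7 of the wider list fell. Leaving out 1 library gave 0 to 2 members up and 0 down, 156 to 332 genes up and 180 to 263 down, and 0 up and 0 to 1 down in the wider list. The library left out when 0 members were called was ko 2 (9 had an unadjusted limma p below 0.05); there were 2 without wt 2 and 1 without wt 1 or ko 1. Same-numbered libraries shared only a number (r = -0.083 between their deviations across 10883 genes), and the fit with a replicate block called 2 members up and 1 down, 482 genes up and 435 down, and 0 up and 2 down in the wider list. Nsd2 kept its direction and call throughout. Of the other values for single genes and shares, 724 kept their call or moved by less than the replicate spread, 74 lost a call and 3 gained one. No called change was reversed. The 724 include genes uncalled in both fits and shares that median-of-ratios scaling cannot move, so they do not measure how stable the calls were. All 74 losses fell on called genes. Of 14 alternatives, Arid2 kept its call under 4, Smarca2 under 6, Arid3a, Chd2 and Phf10 under 8 and Arid3b under 11. The causes were not tested. The number of libraries and their depth limit what can be told. For Smarca4 the interval of -0.09 to 0.06 holds for the difference between these libraries in the reported fit, and their spread may be technical. Its log2 fold change was -0.08 with GC content trends removed and 0.03 with genomic span trends removed. For Chd7 the interval of -0.48 to -0.01 is wide.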
